A study of Mus musculus with 2 samples.

Results

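Open chromatin in the last exons of protein-coding genes was described in T-helper 1 (Th1) primary cells of C57BL/6NJ mice. Th1 cells are CD4 T cells that carry T-bet and secrete interferon-γ. Accessibility was profiled by ATAC-seq, per the labels, in a single group of 2 biological replicates, so no treatment or genotype is compared. Words in the names of the deposited regions raise the possibility, not settled here, that inserts of a reporter library were sequenced instead. Both replicates carry the same donor identifier, the sex was not collected and the age is unknown, and nothing in the labels says that the cells came from separate animals, so differences between the replicates may be technical. A region counted as a last exon region when it was found in both replicates (overlap of at least 1 bp), its centre lay in the last exon of the longest protein-coding transcript of a gene with 2 or more exons, and the whole region lay over 1 kb from any annotated transcript start. Of 84380 regions found in both replicates, 1550 (1.84%) met this rule and 742 (0.879%) met the same rule for inner exons, those that are neither first nor last. Coordinates are mm10.

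The last exon of a gene usually carries the end of the coding sequence, the stop codon and most or all of the 3′ untranslated region (UTR), which holds sites that set the stability and translation of the messenger RNA. Its DNA can also hold binding sites for transcription factors, and open chromatin marks places where such factors or other proteins can reach the DNA. In T cells the AP-1 and BATF factors, ETS and RUNX factors and T-bet, a T-box factor, bind open sites, and CTCF binds sites that help to fold the chromosome.

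Sequences are shown first for 6 of the strongest last exon regions that held a match to the CTCF core letters (CC, any 3 bases, AGG, any base, GGC) within 100 bp of the summit. Whether each match itself lies in the exon was not checked. Capitals mark the match, lower case the 9 bases on either side, the part of the exon named is that of the centre of the region, and each sequence is read on the strand that carries the match, from the RefSeq GRCm38.p6 assembly, which is the mm10 build.
Zscan10, chr17:23610704-23610733, minus strand, coding: cggtgtgaaCCAGCAGGTGGCgcagcaagt
Ddx25, chr9:35541649-35541678, minus strand, 3′ UTR: tgaacctggCCACGAGGGGGCagtagaacg
Synpo2l, chr14:20661153-20661182, minus strand, coding: ttcatgcagCCACTAGGGGGCaggagttac
Prrt3, chr6:113494687-113494716, minus strand, coding: gcctcctcgCCGACAGGGGGCgccctgcgg
Gfod2, chr8:105714342-105714371, plus strand, 3′ UTR: tgccttcttCCAGTAGGGGGCgctgcagga
Slc43a2, chr11:75573545-75573574, minus strand, 3′ UTR: gtgagtctgCCAGCAGGGGGCactgtgatc
These 6 regions had signals from 15.0 to 16.8 in replicate 1 and from 13.8 to 16.1 in replicate 2, all far above the median of last exon regions.

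Chosen matches in last exons of T cell genes follow, for T-box (TCACACC) and AP-1 (TGANTCA) letters.
Foxp3, chrX:7593456-7593480, plus strand, T-box: cctactgacTCACACCccaaagcac
Foxp3, chrX:7593452-7593476, plus strand, AP-1: cagtcctacTGACTCAcaccccaaa
Cd44, chr2:102812917-102812941, plus strand, T-box: ggttgtacaTCACACCtcctcctcg
Havcr2, chr11:46480674-46480698, plus strand, AP-1: aaggggaacTGACTCAgacaacttc
Bhlhe40, chr6:108665671-108665695, plus strand, AP-1: cttgatctgTGAGTCActctccagt
The AP-1 and T-box matches of Foxp3 overlap each other, and they lie 8 bp and 12 bp from the summit. The summit lay 25 bp from the match in Havcr2, 28 bp in Bhlhe40 and 32 bp in Cd44. A match is a run of letters and does not show that a factor was bound.

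Last exon regions had a somewhat lower median signal than inner exon regions and nearly the same median width. Signal, column 7 of the deposited lists, is taken as the enrichment of a region over the background of the authors' caller, which is not stated. The median signal of last exon regions was 5.69 (interquartile range 3.88 to 8.77) in replicate 1 and 5.59 (3.84 to 8.46) in replicate 2. Inner exon regions had medians of 6.42 (4.15 to 9.46) and 5.99 (3.94 to 9.06). All 84380 shared regions, which include those at or within 1 kb of transcript starts, had 6.92 and 6.72. The ratio of the last exon median to the inner exon median was 0.886 in replicate 1 and 0.934 in replicate 2, both below 1 and with quartiles that overlap over most of their range. The median width was 692 bp (484 to 951) in last exons and 682 bp (491 to 905) in inner exons, a ratio of 1.01 that turned to 0.811 in exons of at least 500 bp and to 0.999 without centres in exons of other genes or classes. Regions are not replicates of a condition and there is 1 group, so no test across samples exists and the differences are given as descriptions in each replicate.

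**Figure D1:**
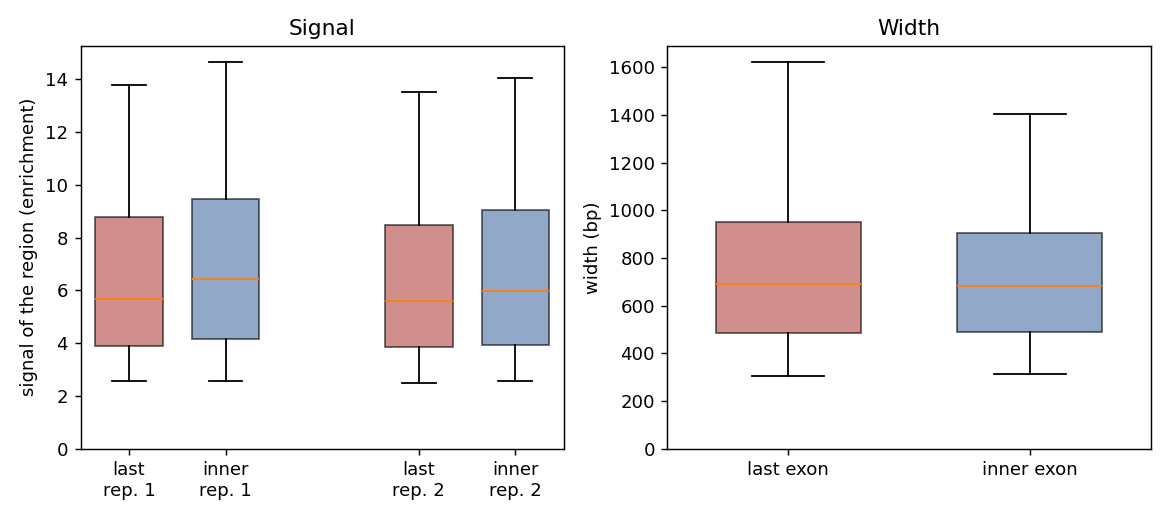
Box plots of the signal (left, enrichment, per replicate) and of the width (right, in bp) of regions centred in last and inner exons; boxes span the quartiles, the line is the median and whiskers reach the 5th and 95th percentiles. The boxes of both classes overlap over most of their length, with medians of 5.69 against 6.42 in replicate 1 and 5.59 against 5.99 in replicate 2.

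The signal of the replicates was compared next. Across the 1550 last exon regions the Spearman correlation of the replicates' signal was 0.952, and across the 742 inner exon regions it was 0.955. The signal differed by over 1.5-fold between the replicates in 42 last exon regions (2.71%, 95% exact binomial interval 1.96 to 3.65), beside 2.56% of inner exon regions and 2.18% of all shared regions. The largest ratio was at Apod, which encodes a lipocalin that carries lipids, with 7.75 in replicate 1 and 3.99 in replicate 2. The olfactory receptor gene Olfr12 followed with 4.43 and 2.30, and at Gpr21, an orphan receptor gene, the order was the other way round, with 3.05 and 5.84. Gnb4 (2.49 and 4.76) and Dusp11 (2.59 and 4.91) also had the higher value in replicate 2. Summits lay within 100 bp of each other in 87.8% of last exon and 87.7% of inner exon regions. Placed by the centre of the region in each list alone, 83.5% of 1905 last exon regions of replicate 1 and 91.0% of 1738 of replicate 2 were found in the other list, against 82.0% and 91.1% of inner exon regions and 86.6% and 93.0% of all regions.

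Regions lay more densely in last exons than in inner exons. Last exons over 1 kb from starts covered 32.9 Mb and held 47.1 regions per Mb, and inner exons covered 18.8 Mb and held 39.4 regions per Mb. The density in last exons was thus 1.20 times that of inner exons. With the centre alone required to be over 1 kb from a start, as the covered bases are, the densities were 49.5 and 42.9 per Mb. The exons differ in shape. The median length of the exon around the centre was 2792 bp for last exon regions and 167 bp for inner exon regions. Last exon regions lay wholly inside their exon in 67.2% of cases, whereas inner exon regions did so in 5.66% and had a median of 26.6% of their bases in the exon. An inner exon region is therefore mostly intron sequence around an exon.

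Most last exon regions were centred in the 3′ UTR. The centre lay in the 3′ UTR for 1269 regions (81.9%), in coding bases for 279 (18%) and in a 5′ UTR for 2, at Nhlh2 and Pura, whose coding sequence begins in the last exon. Coding bases made up 15.8% of the last exon bases over 1 kb from starts and held 53.6 regions per Mb, against 45.9 per Mb in their UTR bases. The stop codon lay inside the region in 27.4% of cases and the transcript end in 16.1%. Along the exon the regions were spread rather evenly, with 18.3% of centres in 0 to 20% of its length, 20.8%, 21.3% and 22.6% in the next steps of 20% and 17.0% in 80 to 100%. Near the start of the exon (0 to 20%) the median signal was 6.43 in replicate 1 and 6.24 in replicate 2, and the median GC content was 52.9%. Near its end (80 to 100%) the median signal was 5.28 and 5.08 and the median GC content 47.2%. In the steps between, the median signal was 5.41, 5.50 and 5.99 in replicate 1 and 5.52, 5.45 and 5.87 in replicate 2. Signal thus did not fall steadily along the exon, whereas the median GC content did (50.4%, 49.2% and 47.6% in these steps).

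GC content separated regions in coding bases from those in UTRs. All last exon regions had a median GC content of 49.0% (44.2 to 54.3), 1.87 percentage points below the 50.9% (45.7 to 55.4) of inner exon regions. The difference was −5.47 points in exons of at least 500 bp, −4.36 over the exonic bases of the regions and −1.13 where regions were placed by their summit. Those centred in coding bases had 57.8% (51.5 to 63.2) and those in the 3′ UTR 47.9% (43.6 to 52.3). The exons themselves differ in the same direction, with 44.1% GC over all last exon bases considered and 50.4% over inner exon bases. Within last exons the coding bases had 51.5% and the UTR bases 42.7%. Counting only the bases of a region that lie in its exon, the medians were 49.2% in last exons and 53.5% in inner exons.

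**Figure D2:**
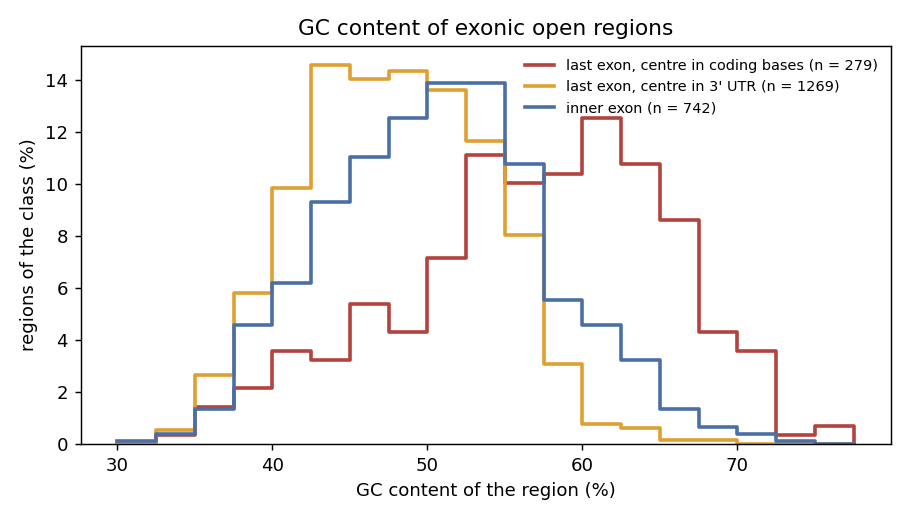
Share of regions (in %) by GC content of the region (in bins of 2.5 percentage points) for last exon regions centred in coding bases, last exon regions centred in the 3′ UTR and inner exon regions. Regions centred in coding bases of last exons reach furthest to the right, with a median of 57.8% against 47.9% in the 3′ UTR and 50.9% in inner exons.

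The GC content was also compared inside single exons. In 1412 regions whose last exon had at least 200 bp outside the region, the exonic part of the region had a GC content a median of 2.51 percentage points above the rest of its own exon, and it was higher in 69.1% of them. For the 226 such regions centred in coding bases the median difference was 10.01 points and 93.8% were higher. For the 1184 in the 3′ UTR it was 1.71 points and 64.3% were higher. In both sets the rest of the exon can hold bases of the other kind, coding or UTR. Over the last exon bases considered, coding bases had 51.5% GC and UTR bases 42.7%. The part of this contrast in the differences within exons was not tested. GC content and signal had a weak Spearman correlation across the 1550 regions, −0.07 in replicate 1 and −0.09 in replicate 2. These points share 2 libraries and the coefficient is a description.

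CpG dinucleotides, the sites of DNA methylation, marked a subset of these regions. The observed over expected CpG ratio reached 0.6 or more, a level typical of CpG islands, in 136 last exon regions (8.77%, 95% exact binomial interval 7.41 to 10.3) and in 60 inner exon regions (8.09%, 6.23 to 10.3). In last exons it was reached by 106 of 279 regions in coding bases (38.0%) and by 28 of 1269 in the 3′ UTR (2.21%). CpG-rich last exon regions were wider than the others, with a median of 939 bp against 678 bp, and had a median signal of 5.38 and 5.18 against 5.77 and 5.64. The 5 regions of highest GC content were all centred in coding bases, with signals below the last exon median in both replicates. Gprin1, a gene of neurite outgrowth, had 75.5% GC with signals of 2.49 and 3.84, a ratio above 1.5. Evx1, a homeobox gene, had 75.2% with 2.92 and 3.55, and Scrt2, which encodes a neural zinc finger repressor, had 73.0% with 4.02 and 2.92. Zfp316 (71.5%) and Fam171a2 (71.3%) followed. The lowest GC content was at Alkbh8, a tRNA-modifying enzyme gene, with 32.5% and signals of 4.15 and 4.45 in its 3′ UTR, and then at Siah1b, Pde7a, Bmt2 and Pcf11, all with 33.8% to 34.5%. Pde7a, a phosphodiesterase gene, had the highest signal of these, 9.09 and 8.12.

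Homeobox genes, which encode developmental transcription factors, held 19 of the 136 CpG-rich last exon regions. This group was collected by gene symbol after the values were seen, so its counts are a description. Of 145 homeobox genes, 23 had a last exon region (15.9%, beside 7.16% of all eligible coding genes), and 19 of the 23 regions reached the CpG ratio of 0.6. Rax had signals of 13.0 and 12.3, Hoxb2 had 11.1 and 9.29, and Shox2 had 10.2 and 9.93. The centre of the Hoxb2 region also lay in an exon of another gene on the other strand, and the region lay 1051 bp from a start. At the low end Lbx1 had 1.67 and 1.80 and Dlx2 had 1.94 and 1.84.

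In all, 1460 of the 20385 protein-coding genes with 2 or more exons (7.16%) had a last exon region. An inner exon region was present in 682 genes (3.35%), and 84 genes had both, which is 5.75% of genes with a last exon region and 12.3% of genes with an inner exon region. Among the 1460 genes, 1378 had 1 region, 74 had 2 and 8 had 3. The median last exon was 2682 bp long in genes with a region and 1285 bp in all eligible genes. Of genes with a region, 87.5% also had an open promoter, meaning a region found in both replicates within 1 kb of any of their starts. That share was 86.1% in genes with an inner exon region and 68.3% in all eligible genes.

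The length of the last exon and the state of the promoter went together with these counts. Among genes with an open promoter, a last exon region was present in 1.45% of genes with a last exon of up to 500 bp, 3.41% between 500 and 1000 bp, 6.75% between 1000 and 2000 bp, 15.4% between 2000 and 4000 bp and 25.8% (95% exact binomial interval 23.5 to 28.2) at over 4000 bp. Among genes without an open promoter the shares were 0.839%, 2.26%, 3.60%, 4.50% and 4.51% (2.97 to 6.54). The share thus climbed over the whole range of lengths at genes with open promoters, and levelled off near 4.5% beyond 2000 bp at the others.

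**Figure D3:**
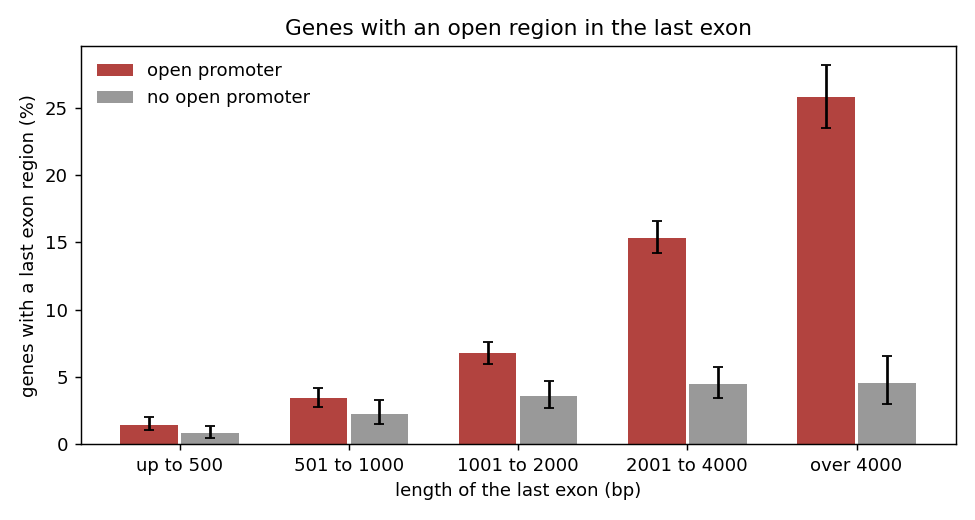
Share of genes (in %) with an open region in the last exon, by the length of that exon in bp, for genes with and without an open promoter; error bars are 95% exact binomial intervals and cover counting error over genes only. In the longest class the share is 25.8% for genes with an open promoter and 4.51% for genes without one.

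The 8 genes with 3 regions in the last exon include the cytokine receptor genes Il17ra and Il6ra. Il17ra encodes a receptor subunit for interleukin-17, and its last exon of 6577 bp held regions with signals of 6.98 and 7.55, of 4.34 and 5.15, and of 2.55 and 2.17, in order along the gene. Il6ra encodes the receptor chain that binds interleukin-6. Its last exon of 7328 bp held a region over the stop codon (4.93 and 4.66), one further along the 3′ UTR (3.49 and 3.53) and one across the transcript end (4.00 and 4.16). Zbtb20, a zinc finger repressor gene with the longest last exon among them (24280 bp), held regions of 7.90 and 6.11, of 2.56 and 3.18, and of 8.45 and 6.45. Tnrc6b, which encodes a scaffold of microRNA silencing, reached 7.46 and 6.05. The others were Cds2, Nmd3, Picalm and Serbp1, with signals from 1.98 to 6.13.

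T cell genes with a last exon region ranged from surface receptors to transcription factors. In 5 lists of Th1, other helper, identity and receptor signalling, activation, and migration genes, chosen with earlier results of these data known, 27 of 163 eligible genes (16.6%) had one, beside the 7.16% of all eligible genes. Their last exons had a median of 1366 bp, against 1285 bp in all eligible genes, and 152 of the 163 had an open promoter. Among genes with an open promoter the counts were 27 of 152 T cell genes (17.8%) and 1278 of 13922 genes in all (9.18%). Among genes with an open promoter and a last exon between 2000 and 4000 bp the counts were 14 of 41 T cell genes (34.1%) and 541 of 3524 genes in all (15.4%). Beyond 4000 bp they were 7 of 13 (53.8%) and 356 of 1381 (25.8%), while between 1000 and 2000 bp they were 3 of 50 (6.00%) and 252 of 3732 (6.75%). Between 500 and 1000 bp they were 3 of 28 (10.7%) and 91 of 2672 (3.41%), and up to 500 bp 0 of 20 and 38 of 2613 (1.45%). By list the counts were 4 of 30 for Th1 genes, 5 of 39 for other helper genes, 9 of 39 for identity and receptor signalling, 7 of 38 for activation and 3 of 19 for migration and adhesion. No test was made on the lists.

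Lists of other genes were also read, beside the 7.16% of all eligible genes. Of 20 housekeeping genes 1 had a last exon region (5%, 95% exact binomial interval 0.127 to 24.9), Tbp, which encodes the TATA-binding protein (6.83 and 7.10). Of 21 chromatin regulators 2 had one (9.52%, 1.17 to 30.4), Tet2, an enzyme that oxidises methylated DNA (10.5 and 9.90, in coding bases), and Kmt2d, a histone methyltransferase gene (1.96 and 2.03). Among markers of other cell types there was 1 of 9 myeloid genes (11.1%, 0.281 to 48.2), Spi1 (4.95 and 5.61), and 1 of 11 neuronal genes (9.09%, 0.230 to 41.3), Camk2a (5.77 and 6.08). With so few genes these intervals include the share of all eligible genes. B cell and hepatocyte markers had 0 of 10 genes each, which allows a share of up to 30% by the limit of 3 counts and 30.8% by the exact interval. Beside the label, promoters were open in both replicates at all 6 Th1 and all 6 T cell markers read here. They were open at 1 of 4 B cell markers (Pax5), 1 of 4 myeloid markers (Cd14), 2 of 3 neuronal markers (Syn1 and Rbfox3) and 0 of 4 hepatocyte markers. Of all eligible genes 68.3% (13922 of 20385) had an open promoter, so such small counts cannot settle the identity of the cells. The part of other cells in the last exon regions was not tested.

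Among surface receptors of the T cell lists Cd44, an adhesion receptor of activated and memory T cells, had the strongest last exon region, with 12.1 and 12.6 on chromosome 2 (102812076 to 102813326), wholly in the 3′ UTR. Cd28, the main costimulatory receptor, had 7.31 and 7.06 in its 3′ UTR. Gpr183, a receptor that guides cells by oxysterols, had 4.96 and 4.96 in a region centred in coding bases, with 53.3% of it in the last exon. The Th1 genes Havcr2, an inhibitory receptor (4.71 and 4.45), and Il12rb1, a receptor subunit for interleukin-12 (4.28 and 4.42), lay lower. The Il12rb1 region runs past the transcript end, and its summit lies beyond that end. Cd40lg, the ligand by which helper T cells act on B cells, had 3.28 and 3.78 in a region centred in coding bases. That region covers the stop codon, and 70.6% of it lay in the last exon. S1pr1, the receptor for exit from lymph nodes, had 1.88 and 1.90, and Icos, a costimulatory receptor, had 1.64 and 1.67, among the 5 weakest of all members.

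Among signalling genes Skap1, an adaptor for integrin activation, had 8.09 and 6.27. Bcl10, an adaptor in the activation of NF-κB (4.17 and 3.83), lay below the median of all last exon regions. So did Socs1, a feedback inhibitor of cytokine signalling (2.48 and 2.57), and Ubash3a (2.97 and 2.76) and Themis (1.99 and 2.42), which both tune T cell receptor signalling. The summit of the Socs1 region lay beyond the transcript end. Il2ra, the high-affinity interleukin-2 receptor chain, held the widest last exon region of all, 3538 bp on chromosome 2 (11690019 to 11693556), with the low signal of 2.65 and 2.41.

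Among transcription factor genes of the T cell lists Foxp3, which defines regulatory T cells, had the highest signal, with 17.3 and 16.3 on chromosome X (7593119 to 7593804) in its 3′ UTR. The other transcription factors of these lists were all below the last exon medians. Stat3, which carries interleukin-6 family signals, had 2 regions (4.56 and 4.09, and 2.11 and 2.30). Rora had 3.88 and 4.15, Satb1, a chromatin organiser, had 3.90 and 4.13, and Irf4 had 3.40 and 3.50. Fosb and Fosl2, members of AP-1, had 3.20 and 3.33, and 2.23 and 2.47. Bhlhe40, a factor that represses interleukin-10 in Th1 cells, had 3.16 and 2.81, and Bcl11b, a T cell identity factor, had 2 regions (3.59 and 2.38, a ratio above 1.5, and 2.25 and 2.39).

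**Figure D4:**
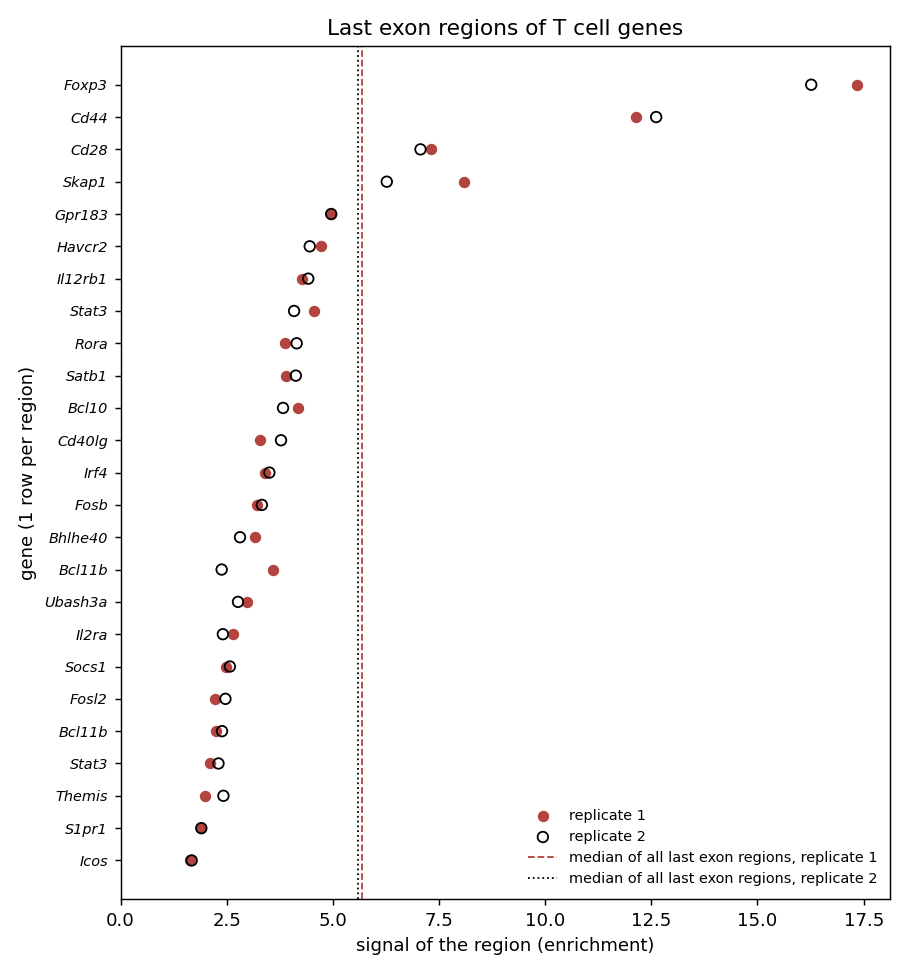
Signal (enrichment) of 25 of the 29 last exon regions in the T cell lists, 1 row per region, with replicate 1 as filled and replicate 2 as open circles and dashed and dotted lines at the medians of all last exon regions. In both replicates 4 of the 25 regions, those of Foxp3, Cd44, Cd28 and Skap1, lie above the median and the other 21 lie below it.

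The rank of T cell genes depended on the value that was ranked. Over the 29 regions of the T cell lists the median percentile among all last exon regions was 19.8 by signal and 47.5 by −log10 q, as a mean over both replicates. The percentile by −log10 q was the higher of both in 24 of the 29 regions (82.8%), and in 40.5% of all last exon regions. Gpr183 stood at percentile 41.8 by signal and 97.0 by −log10 q, Bhlhe40 at 11.6 and 77.0, and Socs1 at 5.13 and 76.6. Il2ra stood at 5.29 and 71.2. The regions of the homeobox genes had medians of 40.1 by signal and 36.1 by −log10 q.

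**Figure D5:**
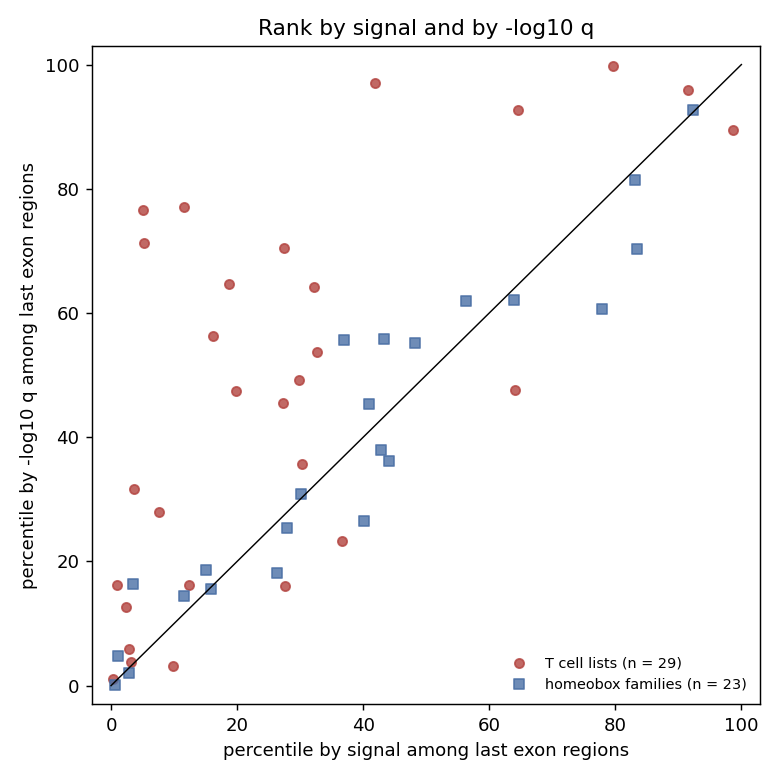
Percentile of each region among all last exon regions by signal (x axis) and by −log10 q (y axis), as a mean over both replicates, for regions of the T cell lists (circles) and of homeobox genes (squares); the line marks equal percentiles. Circles lie above the line in 24 of 29 cases, with medians of 19.8 by signal and 47.5 by −log10 q, and squares in 11 of 23.

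The strongest last exon regions were mostly at genes outside these lists. The highest signal, 38.6 and 36.4, was at Lars2, the mitochondrial leucyl-tRNA synthetase gene (chromosome 9, 123461798 to 123462188), 391 bp in its 3′ UTR. It ranked 1 of all 84380 shared regions by −log10 q and 2 by signal in both replicates. Sequence alike to this region (at least 100 bp at 80% identity or more) was found at 26 other places on 16 chromosomes of the assembly, and the part of such similarity in the signal was not tested. Gja5, a gap junction gene, had 25 and 23.1 with 1 such match elsewhere. Cyp4f16, a cytochrome P450 gene, had 22.7 and 20.3 with 1024. For 6 of the other 7 of the 10 strongest regions no such match was found, and Krt6b, a keratin gene without an open promoter (18 and 17.1), had 1. Those 6 were Hs2st1, a heparan sulfate sulfotransferase gene (18.9 and 20.1), Pla2r1, a phospholipase A2 receptor gene (19.8 and 18.6), Wfikkn2 (18.4 and 18.5), Phf20l1 (18.3 and 18.2), Ssbp2 (17.4 and 18.2) and the zinc finger gene Zbtb21 (19.1 and 16.3). The centre of the Ssbp2 region also lay in an exon of another gene. At the other end were Furin, a protease gene, with 2 regions of 1.30 and 1.32 and of 1.52 and 1.73, and Irf2bp2 with 1.48 and 1.46. Il2rb, an interleukin-2 receptor subunit gene, had 1.56 and 1.67. Besides Il2ra the widest regions were those of Eif4g2 (3237 bp), Slc2a3 (3045 bp), Cbx7 (2928 bp) and Rabepk (2823 bp).

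Shares of regions with a motif are given for last exon, inner exon and all shared regions. All shared regions include those at or within 1 kb of transcript starts, which both exonic classes leave out. Each run of letters was looked for, on either strand, up to 100 bp from the summit in the replicate with the higher signal, and a region may count under several motifs. AP-1 letters were present in 22.9% of last exon regions, 20.6% of inner exon regions and 26.1% of all shared regions. ETS letters (GGAAGT) were present in 17.2%, 15.5% and 19.95%, and RUNX letters (TGTGGTT) in 9.35%, 7.82% and 9.43%, in the same order. CTCF letters were present in 8.19% and 8.09% of the exonic classes and in 5.44% of all shared regions. T-box letters were present in 4.97%, 4.18% and 4.63%. KLF/SP letters (CCCCGCCC) were present in 2.77%, 2.83% and 5.46%. Interferon response letters (GAAA, any 2 bases, GAAA) were present in 4.77%, 5.12% and 5.01%, GATA letters (AGATAA) in 5.42%, 7.14% and 6.93%, TCF letters (CTTTGAT) in 3.94%, 3.37% and 3.23%, and NF-κB letters (GGGA, any base, TTTCC) in 0.516%, 0.270% and 0.672%. The polyadenylation hexamer AATAAA, which directs cleavage at the end of the transcript, was present on the strand of the gene in 5.03% of last exon and 2.83% of inner exon regions.

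Last exon regions with AP-1 letters were stronger than those without, with a median signal of 6.85 and 6.69 against 5.40 and 5.28. Inner exon regions had 7.36 and 7.55 with them and 6.12 and 5.68 without. CTCF letters went with a median of 6.73 and 6.30 in last exons, against 5.61 and 5.49 without. In inner exons the order was reversed, with 6.05 and 5.73 in the 60 regions with CTCF letters and 6.51 and 6.00 without. All shared regions had 7.85 and 7.43 with CTCF letters and 6.85 and 6.65 without. T-box letters went with lower values in last exons (77 regions), 4.58 and 4.76 against 5.81 and 5.67 without. Inner exon regions had 6.23 and 5.99 with T-box letters (31 regions) and 6.43 and 5.99 without. GATA letters also went with lower values in last exons (84 regions), 4.78 and 4.76 against 5.81 and 5.68 without. There ETS, RUNX and KLF/SP letters and the hexamer went with lower values by less. Interferon response (74 regions), TCF (61 regions) and NF-κB letters (8 regions) went with higher values. For TCF these were 5.83 and 6.14 against 5.68 and 5.59 without, and for NF-κB 8.34 and 8.40 against 5.68 and 5.57. Inner exons held NF-κB letters in 2 regions, where the order was reversed, with 4.93 and 3.74 against 6.42 and 5.99 without. The replicates share the regions, and these differences have no test.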

How the data were processed

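The members and gene lists were chosen with earlier results of these data known. The authors deposited 1 narrowPeak list per replicate, derived from the alignments of that replicate on mm10, per the README text deposited with it; the lists have no header. By the narrowPeak format, column 7 is the deposited signal, taken here as a ratio (fold enrichment) over a background that is not stated. Columns 8 and 9 are deposited −log10 p and q values, and column 5 is a deposited display score, not used here. No aligner or caller is named in the sources used here, and the words ASTARR and insert inside the names of regions are left unexplained by these sources. The labels say ATAC-seq, but the libraries may be the inserts of a reporter library, which would change what the signal measures. Read depth is unknown. Lists of 98875 and 91488 regions were limited to chromosomes 1 to 19, X and Y (98786 and 91403), and overlapping regions of both lists were joined, keeping the strongest signal of each replicate. Annotation was GENCODE M21, with the longest transcript by spliced length, and sequence GRCm38.p6 (RefSeq). A centre in both classes counted as last exon. Placing was tested on simulated data with 1 transcript per gene, genes set apart and regions near the middle of exons. That test does not cover overlapping genes, several transcripts or regions wider than their exon. Sequence matches shown exclude chromosome 18. Named were the 10 strongest and the 5 weakest, widest, most and least GC-rich regions, the 5 with the largest difference between replicates, genes with the most regions and T cell list genes with a region, apart from some that are not reported here. Intervals are exact binomial (Clopper-Pearson) at 95% and cover counting error only. Python 3.11.15, pandas 2.3.3, scipy 1.17.1 and pysam 0.24.0 were used, with blastn 2.17.0 for similar sequence.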

Additional observations from a re-analysis of the deposited data

How the results depend on the processing

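No paired analysis was possible because there is 1 group. Values were compared with the standard deviation between the values of the lists of replicates 1 and 2 taken alone, a rough measure that rests on 2 values. Numbers of regions were compared by a 1.5-fold limit instead. Of 74 values from other settings, 40 stayed within these limits, 32 moved beyond them and 2, both for the width ratio, reversed. The last exon against inner exon signal ratio was 0.910 as a mean over both replicates and stayed below 1 in every setting tried, from 0.882 to 0.938 with a replicate left out, at 0.862 in exons of at least 500 bp and at 0.958 for −log10 q. The width ratio of 1.01 turned to 0.999 without centres in exons of other genes or classes and to 0.811 in exons of at least 500 bp, where 106 inner exon regions remained to be compared. It was 1.03 with a reciprocal overlap of 50%, 1.00 with the centre over 1 kb from starts, 1.02 beyond 2.5 kb and with the longest genomic span, 1.03 by summits, and 1.05 to 1.06 with a replicate left out. The GC difference of −1.87 points was −1.65 beyond 2.5 kb, −1.56 with the longest span, −1.13 by summits, −1.57 at a −log10 q of at least 5, −5.47 in exons of at least 500 bp, −4.36 over exonic bases, and −2.07 to −1.83 with a replicate left out. The last exon share of 1.84% was 1.80% with reciprocal overlap, 1.93% by centre distance, 1.5% beyond 2.5 kb, 1.72% with the longest span, 1.78% at a −log10 q of at least 5, 1.76% without exons of other genes or classes, 1.77% in exons of at least 500 bp, and 1.90% to 1.93% with a replicate left out. The gene share of 7.16% was 5.88% beyond 2.5 kb, 6.46% at a −log10 q of at least 5, 8.86% in exons of at least 500 bp, 7.88% to 8.62% with a replicate left out, and 9.18% among genes with an open promoter, a setting chosen after seeing the data. The causes of these shifts were not tested. Without read counts, the depth behind weak regions is unknown.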

Other observations

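Genes of interleukin receptor subunits, collected by symbol after their values were seen, had last exon regions in 9 of 41 cases (22.0%, 95% exact binomial interval 10.6 to 37.6, beside 7.16% of all eligible genes), with 15 regions in all. Their last exons had a median of 1729 bp, against 1285 bp in all eligible genes. They were not split by exon length or state of the promoter, so the 2 shares are not matched. By signal they were low, with a median of 3.68 and 3.53 and a median percentile of 21 among last exon regions, and by −log10 q their median percentile was 68.0. Il1r1, a receptor for interleukin-1, had 13.6 and 14.0, the highest in replicate 1. Il17re, a subunit for the interleukin-17 family, had 12.8 and 14.1, the highest in replicate 2. The Il17re region was centred in coding bases, but only 51.8% of it lay in the last exon and its summit lay upstream of that exon. Il4ra, which binds interleukin-4, had a region of 2.13 and 1.92 over coding bases and one of 2.47 and 2.48 in the 3′ UTR, and Il27ra had 3.68 and 3.44.

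Further gene families were read beside the 7.16% of all eligible genes and the 12.3% of genes with a last exon between 2000 and 4000 bp. In that length class the share was 15.4% with an open promoter and 4.50% without one. The families were not split by the state of their promoters, so these shares are not matched to them. Zinc finger genes with symbols that begin with Zfp, with a median last exon of 2649 bp, had a region in 27 of 389 genes (6.94%, 95% exact binomial interval 4.62 to 9.94). Olfactory receptor genes, with a median last exon of 2751 bp, had one in 8 of 1017 (0.787%, 0.340 to 1.54). Both families were collected by symbol after the values were seen, and no test was made.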
